A study of Mus musculus with 6 samples.

Results

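Cytochrome oxidase, complex IV of the mitochondrial respiratory chain, is the enzyme that passes electrons to oxygen, and it cannot work until heme A and copper have been built into its catalytic core. The 9 genes described here make or insert those cofactors: Cox10 and Cox15 synthesise heme A, Cox17, Cox19, Cox11, Sco1 and Sco2 carry copper to the enzyme, and Cox18 and Surf1 act on the core subunits as they are inserted and matured. They were chosen with earlier results of these data known. They were taken from the count table by gene symbol, and all 9 were found among its 24062 symbols. Only 1 of them, Cox15, passed the test between genotypes.

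The samples were brown adipose tissue, the fat that burns fuel to make heat, from male C57BL/6 mice aged 12 weeks, with total RNA sequenced from 3 mice labelled FAM195A heterozygous and 3 labelled Knock out. FAM195A is described in the series as a protein that binds RNA and is needed for heat production in the cold. By these labels no group was wild type, and neither the housing temperature nor the way the allele was made is given in the sources used here. The library titles begin with RF (heterozygous 1 and 2, knockout 1 and 2) or RE (heterozygous 3 and knockout 3), and what the prefix stands for is not given.

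As background, heme A is made from heme B in the inner mitochondrial membrane. COX10 attaches a farnesyl tail to give heme O, and COX15 oxidises heme O to heme A with electrons from a ferredoxin and its reductase. Heme A is used by cytochrome oxidase alone among mammalian enzymes. Copper reaches the enzyme through the small protein COX17, which hands it to SCO1 and SCO2 for the copper site of one core subunit and to COX11 for the copper site of another. Brown fat is dense in mitochondria, and its respiratory chain builds the proton gradient that UCP1 dissipates as heat.

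Between 18781401 and 20471963 reads fell in genes in the heterozygous-labelled libraries and between 22418031 and 25084627 in the knockout-labelled ones, or 43.9% to 48.4% and 51.0% to 58.3% of each column total. The Fam195a transcript did not separate the labels. It measured 69.0, 70.5 and 103 CPM (reads of a gene scaled to equal library sizes; groups of 3 values always follow the order of replicates 1, 2 and 3) in heterozygous-labelled tissue and 50.5, 82.0 and 81.3 CPM in knockout-labelled tissue (log2 fold change -0.18, SE 0.241, adjusted p = 0.896). Because the way the allele was made is not given, this level can neither bear out the labels nor go against them. Directions below are therefore those of libraries labelled knockout against libraries labelled heterozygous. All 10 brown adipocyte markers were detected in every library, with summed levels of 7001 to 9965 CPM and 7080 to 11564 CPM. Of these, 6 had log2 fold changes below 0 and 4 above. Only Elovl3 was called, beside 0.0526% of all genes tested that rose. It had 86.0, 98.9 and 88.3 CPM against 182, 161 and 216 CPM (log2 fold change 1.03, adjusted p = 0.0418 by the edgeR test). All 26 skeletal muscle markers were detected in every library as well, none was at 0, and their sums did not overlap: 12758 to 37368 CPM in the heterozygous-labelled libraries against 4512 to 7979 CPM in the knockout-labelled ones. Neither edgeR nor limma-voom called any muscle marker at an adjusted p of 0.05, though 25 were under 0.1 by edgeR. DESeq2 called all 26 lower, beside 644 of all 13300 genes tested. White adipocyte markers summed to 23.6 to 92.6 CPM in 5 libraries and to 310 CPM in knockout 3, with Hoxc9, Hoxc10 and Tcf21 at 0 in some. Endothelial sums were 556 to 694 and 650 to 655 CPM and macrophage sums 77.6 to 205 and 111 to 219 CPM. In tissue RNA of this kind, fewer cells of a type and less RNA per cell cannot be told apart.

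Of the 9 genes, all were abundant enough to be tested, 1 fell and none rose at an adjusted p of 0.05 (quasi-likelihood test of edgeR, with Benjamini-Hochberg adjustment over all 13300 genes tested). Over all genes tested 0.534% fell and 0.0526% rose. For 2 of the 9, Cox15 and Sco1, every knockout-labelled library lay below every heterozygous-labelled one, and for none did every one lie above; the same held for 9.89% of all genes in the lower direction and 8.11% in the higher. The median log2 fold change of the 9 was -0.07, beside 0.02 for all genes tested, with 5 values below 0 and 4 above. At an unadjusted p of 0.05 edgeR gave 2 lower and none higher, and DESeq2 and limma-voom each called Cox15 alone. In either direction, 11.5% of all genes tested had an unadjusted edgeR p of at most 0.0456, and 12.3% one of at most 0.0519. DESeq2 called 644 of the 13300 genes lower and 124 higher, and limma-voom called 165 lower and 29 higher.

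**Figure D1:**
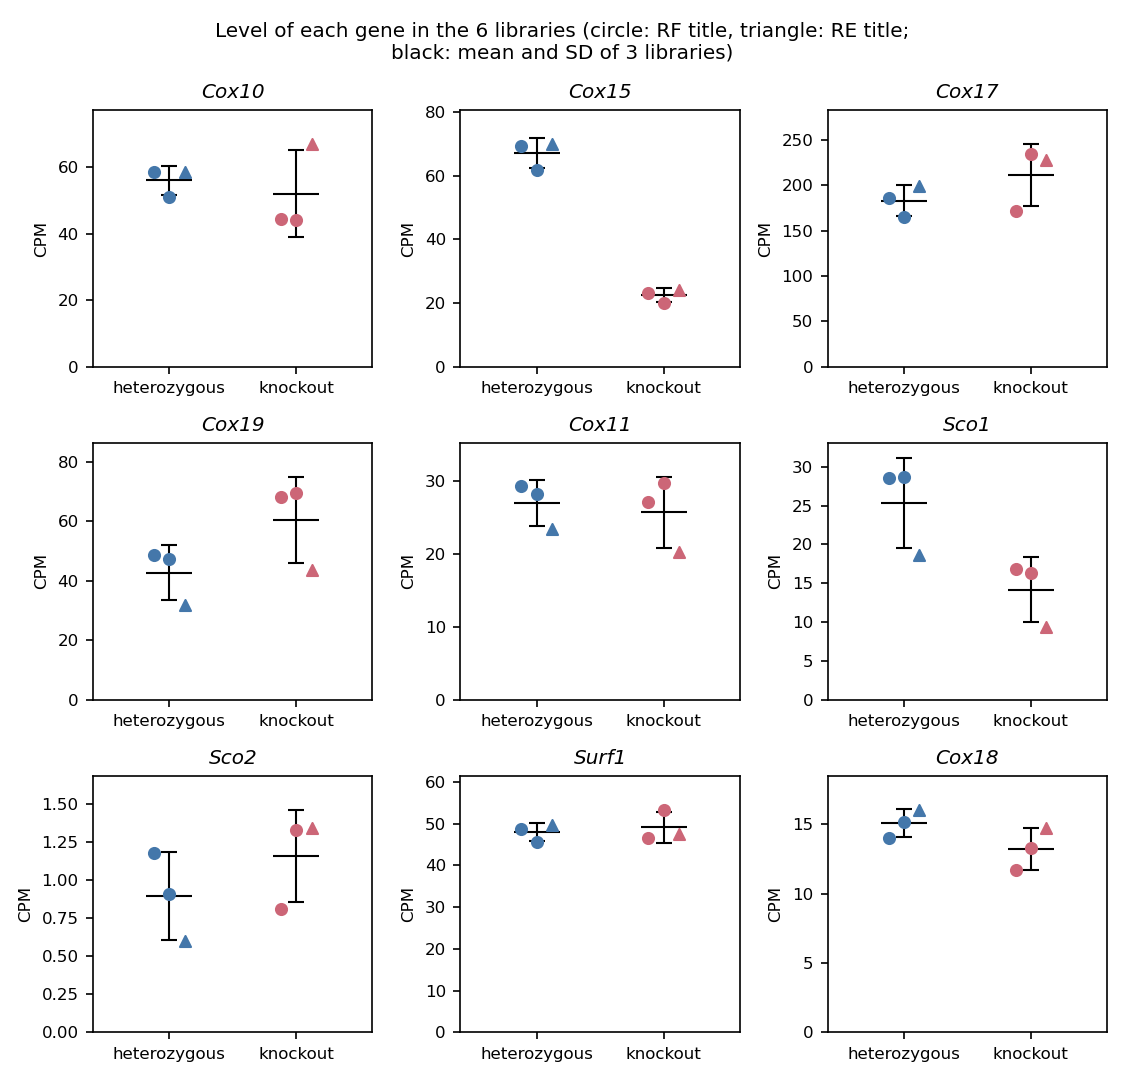
Level of each of the 9 genes in CPM (vertical axis, linear, from 0) in the 3 heterozygous-labelled and 3 knockout-labelled libraries; circles are RF-titled and triangles RE-titled libraries, and black lines give the mean and SD. Cox15 falls from a band of 61.7 to 70.0 CPM to one of 19.9 to 24.2 CPM, Sco1 also separates without overlap, and the groups of the other 7 genes overlap.

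Of the enzymes of heme A synthesis, Cox15 fell and Cox10 did not pass the test. Cox15, the heme A synthase, measured 69.4, 61.7 and 70.0 CPM in heterozygous-labelled tissue, against 23.2, 19.9 and 24.2 CPM in knockout-labelled tissue. The groups were far apart and each was tight, the highest knockout-labelled value being below the lowest of the others. The mean went from 67.0 ± 4.63 to 22.4 ± 2.22 CPM (SD, n = 3 each), a log2 fold change of -1.58 (SE 0.134, adjusted p = 0.0152 by the edgeR test). The 95% interval placed the knockout-labelled level at 27.0% to 41.6% of the other. By p-value Cox15 ranked 2 among the 13300 genes tested. These levels rest on 1224 to 1517 reads per heterozygous-labelled library and 511 to 524 per knockout-labelled one.

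Cox10, the farnesyltransferase of the preceding step (chr11:63962627-64079468, minus strand), was 58.7, 50.9 and 58.5 CPM in the heterozygous-labelled libraries, and the knockout-labelled ones had 44.5, 44.3 and 67.1 CPM. The groups overlapped because the RE-titled knockout 3 was the highest of all 6 libraries while both RF-titled knockout libraries were the lowest. The log2 fold change was -0.11 (SE 0.189, 95% interval -0.55 to 0.33, adjusted p = 0.925), which leaves room for a level between 68.3% and 126% of the heterozygous-labelled one. It was -0.31 within the RF-titled libraries (adjusted p = 0.352) and 0.20 in the RE-titled pair, which has 1 library per genotype and no test.

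The difference between the heme A enzymes was tested within each library. The log2 ratio of Cox15 to Cox10 was 0.24, 0.27 and 0.26 with the heterozygous label and -0.93, -1.13 and -1.45 with the knockout label. The ratio was nearly constant in the heterozygous-labelled mice and was below 0 in every knockout-labelled mouse. The groups differed by -1.43 on the log2 scale (two-sided exact permutation test, p = 0.1, the smallest that 3 against 3 allows; 0.1 after Benjamini-Hochberg adjustment over the 4 ratios tested here), so the design could not bring this ratio past a threshold of 0.05.

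The Cox15 difference was nearly the same in each prefix, -1.61 within the RF-titled libraries (adjusted p = 0.0150) and -1.51 in the RE-titled pair. Over the 17 alternative analyses it stayed between -1.64 and -1.50, and 13 of them called it. The exceptions were the fit with a muscle score as a covariate and the 3 fits that left out heterozygous 2, knockout 1 or knockout 2, where its adjusted p was 0.102, 0.132 and 0.106. None of these 4 fits called any gene of the table. The muscle score, the mean log2 level of the 26 muscle markers, was 8.37, 9.60 and 9.97 with the heterozygous label and 7.71, 6.96 and 6.92 with the knockout label, so it was lower in the same libraries as Cox15. The scores of the groups did not overlap, so muscle content and the genotype label cannot be told apart as sources of the Cox15 difference. With the score as a covariate the Cox15 estimate was -1.59 with a larger error (SE 0.311, adjusted p = 0.9998).

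**Figure D2:**
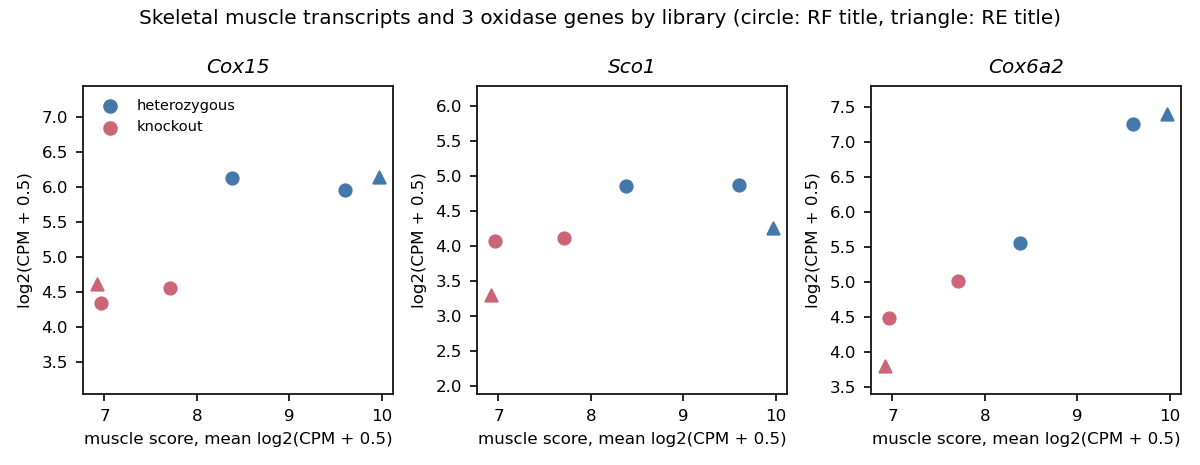
Log2 level of Cox15, Sco1 and Cox6a2 (vertical axes, log2 of CPM plus 0.5) against the muscle score of each library (horizontal axis, same scale), for 3 heterozygous-labelled and 3 knockout-labelled libraries. Cox15 forms 2 levels, Cox6a2 climbs with the score across all 6 libraries, and in Sco1 the RE-titled library of each group is the lowest of its group.

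Cox15 lies on the minus strand of chromosome 19 (GRCm38, chr19:43733254-43753000, 9 exons in the GENCODE M21 transcript of 4798 bases), and its start is shared with another gene. Cutc, which encodes a protein thought to bind copper, starts 4 bases away on the plus strand, and the first exons overlap by 5 bases. Both genes are thus read outward from one stretch of DNA, and the RefSeq promoter windows (250 bases before to 50 after each start, GRCm38.p6) of Cox15 and Cutc contain the same copy of CCGGAAG, the core that ETS-family transcription factors such as GABPA recognise. GABPA is a textbook regulator of cytochrome oxidase genes, which is why these letters were searched for. The copy with its flanking bases spans chr19:43752976-43753004 and is shown in both reading directions, 5′ to 3′, with the core or its complement in capitals.
Cox15 (minus strand): cgacgcctgacCCGGAAGtgcttgttctt
Cutc (plus strand): aagaacaagcaCTTCCGGgtcaggcgtcg
The first base of the capitals is base 8 of the Cox15 transcript, counted from 1, and lies 36 bases before the RefSeq start of Cutc. RefSeq places that start elsewhere than GENCODE, from which the distance of 4 bases was taken.

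Cutc did not pass the test. It had 10.03, 9.02 and 15.2 CPM in the heterozygous-labelled mice and 8.56, 9.21 and 10.5 CPM in the knockout-labelled mice, with overlapping groups. Its log2 fold change was -0.28 (SE 0.232, 95% interval -0.82 to 0.26, adjusted p = 0.779), and the interval of Cox15, -1.89 to -1.27, lay wholly below it. The log2 ratio of Cox15 to Cutc was 2.73, 2.71 and 2.17 with the heterozygous label and 1.39, 1.07 and 1.17 with the knockout label, a difference of -1.33 (two-sided exact permutation test, p = 0.1, the smallest possible). This pair was chosen for a ratio after its values had been seen. At its other end Cox15 shares 444 exonic bases with Entpd7, a nucleotide hydrolase gene on the opposite strand. Entpd7 was 2.97 ± 0.0675 and 4.20 ± 0.251 CPM (SD, n = 3 each; log2 fold change 0.50, adjusted p = 0.370); it is far less abundant than Cox15 and lay in the other direction.

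The same ETS core was found, on either strand, in the promoter windows of 4 of the 7 genes that have one in the RefSeq table: Cox15, Cox10, Sco1 and Surf1. Of all 32851 promoter windows of that length 8.86% hold it. The other sites are shown with the core in capitals because they mark genes that behaved differently, the groups of libraries overlapping in Cox10 and Surf1 and not overlapping in Sco1.
Cox10 (chr11:64079482-64079510, minus strand): agcgctgggagCCGGAAGtgacaagagga
Sco1 (chr11:67052614-67052642, plus strand): gcctccttcggCTTCCGGcagaagcggaa
Surf1 (chr2:26916511-26916539, minus strand): ctggccctactCTTCCGGtcacggttctc
Searches of the same 7 windows on both strands for the NRF1 consensus, AAGATGGC (YY1) and TCAAGGTCA (estrogen-related receptors), which occur in 4.6%, 2.75% and 0.42% of all windows, found only a YY1 match in Cox10, clear of its ETS core. That match with its flanking bases spans chr11:64079433-64079462, with the motif in capitals.
Cox10, YY1 letters: ggcgggctagcAAGATGGCggcgcccagga
Such matches describe the letters in these windows and do not show that a factor bound there.

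**Figure D3:**
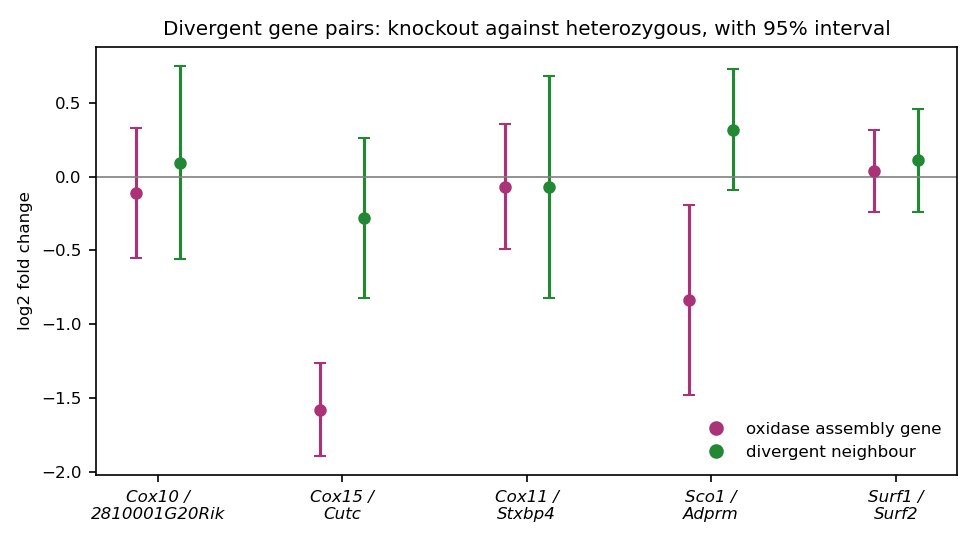
Log2 fold change with its 95% interval (vertical axis) for 5 of the genes and for the neighbour that starts within 1 kb of each on the opposite strand. In the Cox15 and Cutc pair the intervals do not overlap, nor do those of Sco1 and Adprm; in the pairs of Cox10, Cox11 and Surf1 both members lie near 0.

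Of the 9 genes, 5 have a neighbour in the count table that starts within 1 kb on the opposite strand. The rate of such pairs over all genes was not computed. Sco1 starts 76 bases from Adprm, which encodes an ADP-ribose and CDP-alcohol phosphatase. Adprm measured 14.7, 12.1 and 11.8 CPM in heterozygous-labelled tissue, against 14.0, 15.4 and 18.6 CPM in knockout-labelled tissue (log2 fold change 0.32, adjusted p = 0.593), with overlapping groups and the opposite sign to Sco1. The log2 ratio of Sco1 to Adprm, also chosen after its values had been seen, was 0.93, 1.21 and 0.64 against 0.26, 0.08 and -0.96, a difference of -1.14 (two-sided exact permutation test, p = 0.1). Around the other genes nothing passed the test: 2810001G20Rik, an antisense transcript that starts 16 bases from Cox10, was at 0.09 (adjusted p = 0.960), Stxbp4, 89 bases from Cox11, at -0.07 (adjusted p = 0.974), Tom1l1, which overlaps the far end of Cox11 by 688 exonic bases, at -0.03 (adjusted p = 0.980), and Surf2, whose start overlaps that of Surf1, at 0.11 (adjusted p = 0.896).

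The 5 copper carriers gave no call by edgeR, DESeq2 or limma-voom, and their values went both ways; Sco1 alone had an unadjusted p under 0.05. Cox17, the soluble chaperone at the head of the route, was the most abundant of the 9 genes, at 186, 165 and 200 CPM in the heterozygous-labelled libraries and at 172, 235 and 228 CPM in the knockout-labelled ones. The groups overlapped, through knockout 1 alone, and the log2 fold change was 0.21 (SE 0.162, 95% interval -0.17 to 0.59, adjusted p = 0.758). Within the RF titles it was 0.21, and the RE pair gave 0.19. Cox17 (chr16:38346991-38352763, plus strand) shares 257 exonic bases with Gm21987, a gene model on the same strand.

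Cox19, a partner of COX11 in copper transfer (chr5:139336189-139351418, minus strand), was 48.5, 47.4 and 31.9 CPM in the heterozygous-labelled libraries, and the knockout-labelled ones had 68.3, 69.5 and 43.7 CPM. The RE-titled library was the lowest of its group on both sides, and that alone made the groups overlap. The log2 fold change was 0.51 (SE 0.236, 95% interval -0.05 to 1.06, adjusted p = 0.479), with 0.52 among the RF titles and 0.45 for the RE pair. With the title prefix as a covariate it was 0.50 and passed the threshold (adjusted p = 0.0403).

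Sco1, which metallates the copper site of a core subunit and also acts in cellular copper balance (chr11:67052670-67067070, plus strand), had 28.5, 28.7 and 18.6 CPM in the heterozygous-labelled mice and 16.8, 16.3 and 9.32 CPM in the knockout-labelled mice. All knockout-labelled values were below all others, but the RE-titled library was again the lowest on both sides and widened the spread. The mean was 25.3 ± 5.77 CPM against 14.2 ± 4.21 CPM (SD, n = 3 each; log2 fold change -0.83, SE 0.275, 95% interval -1.48 to -0.19), with an unadjusted p of 0.0181 and an adjusted p of 0.247. The difference was -0.79 within the RF-titled libraries (adjusted p = 0.0620) and -0.96 in the RE-titled pair. With the prefix as a covariate it was -0.86 and passed (adjusted p = 0.0140), and leaving out single libraries moved it between -1.01 and -0.62 without a call. With the muscle score as a covariate it was -1.001 (SE 0.602, adjusted p = 0.9998).

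Sco2, the paralogue of Sco1, was near the limit of detection, with 13 to 34 reads per library. It measured 1.17, 0.907 and 0.5999 CPM in heterozygous-labelled tissue, against 0.806, 1.33 and 1.34 CPM in knockout-labelled tissue, and the groups overlapped (log2 fold change 0.38, SE 0.379, 95% interval -0.51 to 1.26, adjusted p = 0.835). Its exons overlap those of Tymp on the same strand by 856 bases and those of Ncaph2 on the opposite strand by 829 bases (chr15:89371637-89373846), so its low count may leave out reads shared with them. Tymp was lower still, at 2 to 13 reads per library (log2 fold change 0.63, adjusted p = 0.839), and Ncaph2 was at 0.21 (adjusted p = 0.601). The log2 ratio of Sco1 to Sco2 was 4.12, 4.38 and 4.12 with the heterozygous label and 3.73, 3.21 and 2.42 with the knockout label, a difference of -1.09 (two-sided exact permutation test, p = 0.1), of which the Sco2 side rests on those few reads.

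Cox11, which delivers copper to the site beside heme A (chr11:90638173-90644931, plus strand), was 29.4, 28.3 and 23.5 CPM in the heterozygous-labelled libraries, and the knockout-labelled ones had 27.2, 29.8 and 20.4 CPM. The groups overlapped almost wholly and the RE-titled library was the lowest of each. The log2 fold change was -0.07 (SE 0.181, 95% interval -0.49 to 0.35, adjusted p = 0.956).

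Neither insertion and maturation factor was called by edgeR, DESeq2 or limma-voom, and neither had an unadjusted p under 0.05 by edgeR. Surf1, which acts when heme A enters the largest core subunit and is known as a gene of Leigh syndrome (chr2:26913381-26916530, minus strand), had 48.8, 45.5 and 49.7 CPM in the heterozygous-labelled mice and 46.5, 53.4 and 47.6 CPM in the knockout-labelled mice. The groups overlapped, and the log2 fold change of 0.03 had the smallest error of the 9 genes (SE 0.119, 95% interval -0.24 to 0.31, adjusted p = 0.962). Cox18, the insertase that moves part of a core subunit across the membrane (chr5:90214724-90224001, minus strand), measured 14.0, 15.2 and 16.1 CPM in heterozygous-labelled tissue, against 11.7, 13.3 and 14.7 CPM in knockout-labelled tissue. The groups overlapped through knockout 3 alone (log2 fold change -0.19, SE 0.155, 95% interval -0.55 to 0.17, adjusted p = 0.774).

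**Figure D4:**
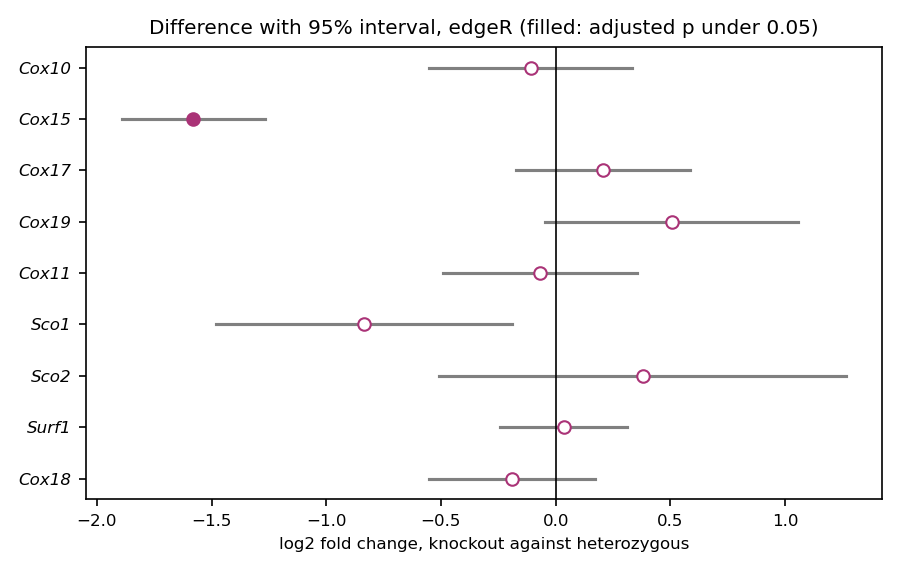
Log2 fold change of the 9 genes (horizontal axis, knockout-labelled against heterozygous-labelled) with 95% intervals from the edgeR fit; the filled point passed an adjusted p of 0.05. The interval of Cox15 lies between -1.89 and -1.27, that of Sco1 is below 0 without passing the adjustment, and the intervals of the other 7 genes include 0.

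Set per kilobase of transcript, the levels changed order. In the heterozygous-labelled libraries the mean was 40.9 ± 1.85 CPM per kb for Surf1, 22.1 ± 2.56 for Cox11, 19.2 ± 1.53 for Cox10, 17.3 ± 3.77 for Cox19, 14.0 ± 0.964 for Cox15, 11.3 ± 0.763 for Cox18, 10.5 ± 2.39 for Sco1 and 0.715 ± 0.230 for Sco2 (SD, n = 3 each). Cox17 stood first by either of its annotated lengths, at 49.7 CPM per kb with a transcript of 3690 bases and 413 CPM per kb with one of 444 bases, and which of them was expressed is not known. From Cox11 down to Cox15 each gene overlapped the next in the range over the 3 libraries, as did Cox18 and Sco1. Surf1 and Cox11, Cox15 and Cox18, and Sco1 and Sco2 did not overlap. In the knockout-labelled libraries Cox15 had 4.68 ± 0.464 CPM per kb, below Cox18 at 9.93 ± 1.14 and overlapping Sco1 at 5.88 ± 1.74 (SD, n = 3 each). The heme A synthase was thus among the middle ranks in one group and above Sco2 alone by its mean in the other.

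Among 21 tested further assembly factors of cytochrome oxidase, 2 fell and none rose, 4 had all knockout-labelled libraries below the others, and the median log2 fold change was 0.10. Over all genes tested 0.534% fell and 9.89% had all knockout-labelled libraries below the others. Both assembly factors that fell serve the expression of mitochondrially encoded subunits. Taco1, which promotes translation of the largest core subunit, was 51.3, 45.3 and 50.9 CPM in the heterozygous-labelled libraries, and the knockout-labelled ones had 20.3, 19.5 and 23.9 CPM (log2 fold change -1.21, SE 0.137, adjusted p = 0.0248). Lrpprc, which stabilises mitochondrial mRNAs, stood at 172, 167 and 186 CPM and at 93.9, 106 and 94.7 CPM (log2 fold change -0.83, SE 0.121, adjusted p = 0.0418). Each fell in every knockout-labelled mouse without overlap, and each lost its call in most fits that left out 1 library. Taco1 was called without heterozygous 1 or knockout 3 and had an adjusted p of 0.0936 to 0.132 in the other 4 such fits; Lrpprc was called without heterozygous 1 only and had 0.0581 to 0.185 in the other 5. Beside the muscle transcripts, which were lower in the same libraries, Taco1 was at -1.34 and Lrpprc at -0.81 with the muscle score as a covariate, neither of them called. Slirp, the binding partner of LRPPRC, was at 0.15 (adjusted p = 0.824).

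The other factors with the smallest p in that list were Tmem177, which acts on the copper-bearing core subunit, at -1.02 (adjusted p = 0.0581), Timm21, a translocase subunit that also escorts assembly intermediates, at -0.73 (adjusted p = 0.144), and Pet100 at 0.34 (adjusted p = 0.465). DESeq2 and limma-voom both called Tmem177, DESeq2 alone called Timm21, and neither called Pet100. The remaining 16 lay between -0.04 and 0.29.

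Of the 17 nuclear-encoded structural subunits that these factors assemble, none passed the test, 15 had values above 0 and the median was 0.25. At an unadjusted p of 0.05 edgeR gave 1 lower, Cox6a2, and 1 higher, Cox8a, and DESeq2 called Cox6a2 and limma-voom none. By edgeR 11.5% of all 13300 genes tested had an unadjusted p of at most 0.0456, and DESeq2 called 644 of them lower. Cox8a was at 0.39 (adjusted p = 0.321) and Cox7a2 at 0.26 (adjusted p = 0.594). Cox6a2, an isoform of heart and skeletal muscle, had 46.6, 152 and 168 CPM in the heterozygous-labelled mice and 31.8, 21.8 and 13.4 CPM in the knockout-labelled mice (log2 fold change -2.45, adjusted p = 0.0805). Its levels had the same order over the 6 libraries as the muscle score, and with that score as a covariate its estimate was 0.24. Cox7a1 and Cox8b, also isoforms of muscle, had overlapping groups, at -0.05 (adjusted p = 0.962) and 0.24 (adjusted p = 0.765). Of the mitochondrially encoded subunits mt-Co1, mt-Co2 and mt-Co3 none was matched to the table, so the transcripts that Taco1 and Lrpprc act on were not analysed here.

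Genes that make heme B and support the heme A step gave no call among 15 tested, with 4 wholly lower, 1 wholly higher and a median of -0.14. Over all genes tested 9.89% were wholly lower and 8.11% wholly higher. At an unadjusted p of 0.05 edgeR gave 4 lower and 1 higher, and 11.5% of all genes tested had an edgeR p of at most 0.0456. Fech, Abcb10 and Fdxr, the 3 with the smallest p, were called by both DESeq2 and limma-voom. Of all 13300 genes tested, DESeq2 called 644 lower and limma-voom 165. Fech, the ferrochelatase that completes heme B and so supplies the substrate of COX10, measured 190, 176 and 213 CPM in heterozygous-labelled tissue, against 99.0, 94.2 and 123 CPM in knockout-labelled tissue (log2 fold change -0.87, SE 0.153, adjusted p = 0.0644; adjusted p = 0.0305 in the RF-titled libraries). Fdxr, the reductase that feeds electrons to the ferredoxin used by COX15, stood at 11.7, 12.4 and 12.6 CPM and at 5.56, 7.41 and 6.41 CPM (log2 fold change -0.92, adjusted p = 0.0736). Abcb10, a transporter of the inner membrane needed for heme synthesis, was at -0.67 (adjusted p = 0.0736). All 3 had groups without overlap. With the muscle score as a covariate Fech was at -0.86, Fdxr at -0.98 and Abcb10 at -0.47. Of the mitochondrial ferredoxins, Fdx1 had 49.2 ± 2.50 and 44.7 ± 5.02 CPM (SD, n = 3 each, log2 fold change -0.14, adjusted p = 0.815 by the edgeR test). Fdx2, listed as Fdx1l, had 0.608 ± 0.224 and 0.585 ± 0.0861 CPM (SD, n = 3 each, log2 fold change -0.04, adjusted p = 0.986). Which of them serves COX15 was not tested here. Alas1, the first enzyme of heme synthesis, was at -0.45 (adjusted p = 0.785).

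Copper handling outside the mitochondrial carriers also gave no call, with 11 genes tested, 3 wholly higher, none wholly lower and a median of 0.14. The share wholly higher among all genes tested was 8.11%, and the share wholly lower 9.89%. By edgeR 11.5% of all genes tested had an unadjusted p of at most 0.0456. Only the following 2 copper handling genes had an unadjusted p under 0.05, and neither DESeq2 nor limma-voom called any of the list. Atox1, the cytosolic chaperone for the copper-exporting pumps, was at 0.36 (adjusted p = 0.347) and Sod1, the copper-zinc superoxide dismutase, at 0.36 (adjusted p = 0.385). Slc25a3, the carrier that brings copper and phosphate into the matrix, was at -0.16 (adjusted p = 0.746), and Slc31a1, the copper importer of the cell surface, at 0.14 (adjusted p = 0.768).

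Assembly factors of the other proton-pumping complexes gave a point of comparison. For complex I, 7 of 16 tested genes were wholly lower, beside 9.89% of all genes tested, and the median was -0.16. None rose and 3 fell, beside 0.0526% and 0.534% of all genes tested. The 3 that fell were Ndufaf7, a methyltransferase (46.2 ± 1.001 to 23.9 ± 1.05 CPM, SD, n = 3 each; log2 fold change -0.95, adjusted p = 0.0259), Acad9, an assembly factor of the acyl-CoA dehydrogenase family (66.5 ± 2.92 to 34.9 ± 2.004 CPM; -0.93, adjusted p = 0.0259), and Foxred1 (120 ± 9.64 to 64.7 ± 6.39 CPM; -0.89, adjusted p = 0.0426). Each was called without heterozygous 1 or knockout 3, and in the other 4 fits that left out a library the adjusted p of these genes ran from 0.101 to 0.171. With the muscle score as a covariate Ndufaf7 was at -0.99, Acad9 at -0.89 and Foxred1 at -0.91, none of them called. The next by p were Ndufaf1 at -0.67 (adjusted p = 0.0746) and Tmem186 at -0.56 (adjusted p = 0.0825). DESeq2 and limma-voom both called Ndufaf1, and DESeq2 alone called Tmem186. For complex III none of 6 passed, 1 was wholly lower, beside 9.89% of all genes tested, and the median was -0.18. Ttc19, the only one with an unadjusted p under 0.05 and uncalled by DESeq2 and limma-voom, was at -0.40 (adjusted p = 0.174), Bcs1l at -0.30 (adjusted p = 0.657) and Uqcc1 at -0.27 (adjusted p = 0.711). The estimate for Cox15 was lower than that of any assembly factor tested for the 3 complexes, a comparison of estimates and not a test.

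**Figure D5:**
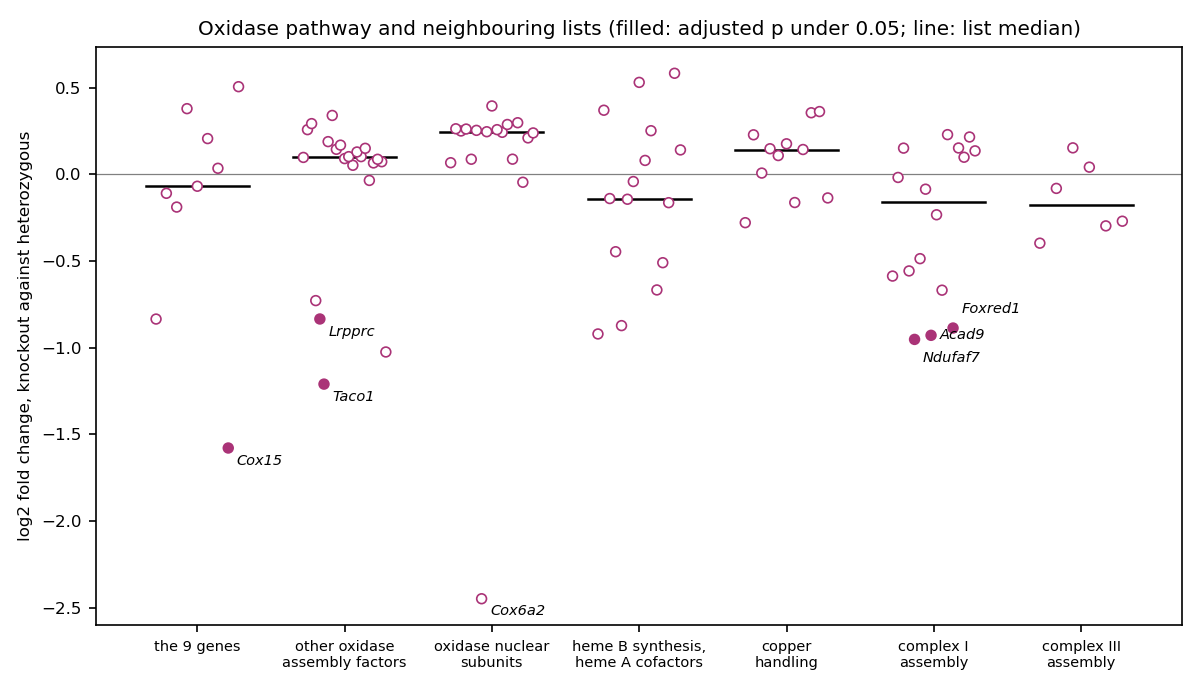
Log2 fold change (vertical axis, knockout-labelled against heterozygous-labelled) of every tested gene in the 7 lists along the horizontal axis; filled points passed an adjusted p of 0.05 and bars mark list medians. Among the assembly lists single genes lie far below medians near 0. The 17 nuclear subunits have a median of 0.25, with Cox6a2 at -2.45 and the others between -0.05 and 0.39.

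Cox15 also had company outside the pathway. Tested genes averaging a log2 CPM of at least 1 were ranked by how closely their centred log2 level followed Cox15 over the 6 libraries. The nearest were Mccc1, Fam185a, Dnajc28, Pcca and Zadh2, with a root mean square difference of 0.0952, 0.117, 0.146, 0.149 and 0.155 log2 units. Mccc1, a subunit of the leucine-breakdown carboxylase, was 184, 173 and 210 CPM in the heterozygous-labelled libraries, and the knockout-labelled ones had 64.1, 65.2 and 73.2 CPM. Pcca, the biotin-bearing subunit of propionyl-CoA carboxylase, stood at 273, 268 and 243 CPM and at 91.5, 97.3 and 106 CPM. Fam185a, at 13.6 to 15.8 CPM and 4.44 to 5.12 CPM, lay close to Cox15 in its fold change too, at -1.61 on the log2 scale. Dnajc28, a J-domain protein gene, was at -1.31 and Zadh2, an oxidoreductase gene, at -1.34. These genes were selected for likeness in the same libraries, so their differences are given as a description.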

How the data were processed

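Brown adipose tissue RNA of 6 mice, 3 per genotype per the labels' protocols, was analysed from the authors' deposited table of read counts per gene symbol, laid out as HTSeq output. STAR 2.7.2b, Bowtie2 2.3.4.3, HTSeq, SAMtools 1.9, edgeR, Trim Galore and mm10 are listed, without roles, per the submitters' processing notes. Not given in the sources used here are the strand setting, the annotation and the treatment of multiply aligned reads. If strand was ignored, overlapping genes on opposite strands cannot be separated. Groups came from the genotype label. Replicate numbers follow accession order and pair nothing.

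The closing lines of the table, which name no gene, were left out, so that genes hold 43.9% to 58.3% of each column. edgeR 4.0.16 (R 4.3.3) was run with TMM scaling, filterByExpr (minimum count 10, minimum total 15; 13300 genes kept) and a robust quasi-likelihood F test of genotype, with Benjamini-Hochberg adjustment at 0.05. Levels are CPM on TMM-scaled library sizes, and ratios and scores are log2 of CPM plus 0.5. The script was tested on simulated data. The biological coefficient of variation was 24.7%, and every pair of libraries differed by more than sampling noise (chi-square over its degrees of freedom, 33.3 to 257). RE and RF titles separated on the second principal component, so within-prefix values are given. The 4 within-library ratios were tested by two-sided exact permutation.

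The 9 genes, the gene lists, the naming rule and the alternatives were chosen with earlier results of these data known. Named were the 9 genes, Fam195a, neighbours that overlap a gene or start within 1 kb on the opposite strand, called genes and those with the smallest p in each pathway list, and the 5 profiles nearest to Cox15. Marker lists are given as sums, with the called marker Elovl3 named beside them. A few further genes (Slirp, Fdx1, Fdx2, Alas1, Slc31a1, Cox7a1, Cox8b) were named after their values were seen. Positions are from GENCODE M21 on GRCm38, which mm10 names (23618 of 24062 symbols placed), and promoter sequences from RefSeq on GRCm38.p6, where 7 of the 9 genes had a window. Coa1 was not matched, and Pet117 and Atp7b were too low to test. The alternatives tried were scaling by RLE or by library size only, no filter, a mean CPM of at least 1, the title prefix or the muscle score as a covariate, limma-voom 3.58.1 with quality weights, DESeq2 1.42.0, the RF-titled libraries alone, no robust estimation, muscle markers left out of library sizes, and each library left out in turn.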

Additional observations from a re-analysis of the deposited data

How the results depend on the processing

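The Cox15 difference kept its sign in all 17 alternatives (-1.64 to -1.50) and its call in 13, and DESeq2 gave the smallest adjusted p (4.19e-18). The number of the 9 genes called, 1, became 3 with the title prefix as a covariate (Cox15, Cox19 and Sco1) and 0 with the muscle score as a covariate, where 1 had an unadjusted p under 0.05; it ranged from 0 to 1 when single libraries were left out. It was 0 without heterozygous 2, knockout 1 or knockout 2, where edgeR gave 1, 2 and 2 of the genes an unadjusted p under 0.05.

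The count of all genes that fell, 71, was 244 with the title prefix, 113 in the RF-titled libraries alone, 644 by DESeq2, 165 by limma-voom and 0 with the muscle score (190 at an unadjusted p under 0.05). Leaving out single libraries gave 0 to 381, the 0 arising without heterozygous 2, knockout 1 or knockout 2 (898, 950 and 927 at an unadjusted p under 0.05). The count that rose, 7, was 13 without a filter, 67 with the title prefix, 19 in the RF-titled libraries, 124 by DESeq2, 29 by limma-voom, 0 with the muscle score (72 at an unadjusted p under 0.05) and 0 to 19 over the libraries left out. The cause of these shifts was not tested.

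The log2 ratio of Cox15 to Cox10 lay between -1.55 and -1.29 over its alternatives and that of Sco1 to Sco2 between -1.39 and -0.74. The median of the 9 genes ran from -0.24 to 0.05. Without a call in any of these fits, the muscle score moved Sco2 to -0.91 and Cox17 to -0.02, 1 other fit changed the sign of Cox11, and 3 changed that of Surf1. Sco2 had 13 to 34 reads per library, and whether reads shared with Tymp and Ncaph2 lowered that count was not tested. No paired analysis was possible because the labels give no replicate numbers that the groups share.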
